A study of Mus with 8 samples.

Results

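LSK and LK cells of 14-day-old (P14) Ifnar+/- mice were compared by CITE-seq, which counts RNA molecules and antibody tags in the same single cells. LSK cells were sorted as Lin-Sca1+Kit+ and LK cells as Lin-Kit+, with no Sca1 gate named for LK, and each fraction was 1 library. Cells were barcodes with at least 7500 gene UMI (unique molecular identifiers, 1 for each captured RNA molecule) and at most 10% of UMI from mitochondrial genes. This gave 4615 LSK and 2411 LK cells, 7026 of the 35549 cells of the 8 libraries. Both libraries carried the Ifnar+/- genotype. The other 6 libraries were the same fractions from P14 Ifnar-/-, P0 (newborn) Ifnar+/- and P0 Ifnar-/- mice. The labels do not number the Ifnar gene, describe its allele, name the organ, say how many mice were pooled or say whether the 2 fractions came from the same mice. No library had a replicate, so no test between the fractions was possible, no p-value is given, and every interval covers counting error only.

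Blood formation starts from hematopoietic stem cells (HSC), which express Sca1, Kit and, in part, CD150 and CD201 while lacking lineage markers. Their early progeny in the LSK gate include multipotent and lymphoid-primed progenitors that gain CD135 (Flt3). Kit+ cells without Sca1 are mostly committed progenitors: myeloid ones carry CD16/32 and head for neutrophils, monocytes, basophils and mast cells, and others head for red cells and megakaryocytes. Type I interferon acts through the receptor subunits Ifnar1 and Ifnar2 and induces a broad set of antiviral genes, among them Ly6a, which encodes Sca1.

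Median gene UMI per cell was 25597 in LSK (quartiles 17996.5 and 35120.5) and 38090.0 in LK (27049 and 51985.5), and an LK cell carried on average 1.47 times the UMI of an LSK cell. The cells held 130788076 and 100486590 gene UMI, and counting intervals are narrow except for rare transcripts. The mitochondrial limit removed 6 of 4621 LSK and 154 of 2565 LK barcodes. The 2 libraries shared 4 cell barcodes. Just above the UMI threshold, within 10% of it, lay 6 LSK and 4 LK cells, and 8 and 51 barcodes lay within 10% below it. Levels below are CPM, the UMI of a gene per 1000000 gene UMI, over the summed cells of a library, and ratios are LSK over LK on the log2 scale after adding 0.5 counts. Because these are 3' tag counts from pooled cells, a lower level in a library can mean fewer cells of a type or less RNA per cell, which a summed level cannot tell apart.

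The sorted and targeted genes were read first. Ly6a (Sca1; GRCm38.p6, chromosome 15: 74994877 to 74998031) had 47.0 CPM in LSK (95% exact Poisson interval 45.8 to 48.2) and 8.90 CPM in LK (8.32 to 9.50), a log2 ratio of 2.40. The sort chose this difference, so it checks the labels and is no finding. Kit, the receptor for stem cell factor used in both gates, had 227 CPM in LSK and 195 CPM in LK, a log2 ratio of 0.22. Ifnar1 had 36.9 CPM in LSK (35.9 to 37.99) and 23.5 CPM in LK (22.6 to 24.5). Ifnar2 had 98.7 and 72.5 CPM. Their log2 ratios were 0.65 and 0.44, under 2-fold and on the LSK side.

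The comparison asks how the Sca1+ fraction differs from the wider Kit+ progenitor pool. More than 50% of the measured genes in the stem cell factor, lymphoid and interferon lists were at least 2-fold higher in LSK (12 of 20, 15 of 22 and 28 of 51), while 14 of 20 neutrophil and 18 of 22 erythroid genes were at least 2-fold lower. Of 7 basophil and mast cell markers with enough UMI, 5 were at least 2-fold lower and 0 higher. The count covered 13596 genes that reached 50 UMI in LSK, LK or both. Of these, 1719 (12.6%) were at least 2-fold higher in LSK and 545 (4.01%) at least 2-fold lower. Over all of them the middle log2 ratio was 0.19, so the whole distribution lay slightly on the LSK side. With TMM factors, which shift all ratios by -0.17, the counts were 1357 higher and 648 lower, and the higher genes made up 67.7% of those past 2-fold instead of 75.9%. With 5 CPM added to each level, which shrinks the ratios of rare genes, 230 were higher and 181 lower, and the higher genes made up 56.0%. Among named and annotated genes of at least 50 CPM in the higher library, ratios ran from 2.30 for Ltb down to -6.57 for Ly6c2. Rarer genes reached large ratios on both sides, such as 5.59 for Cma1, a mast cell protease, with 401 of its 408 LSK UMI in 1 cell.

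**Figure D1:**
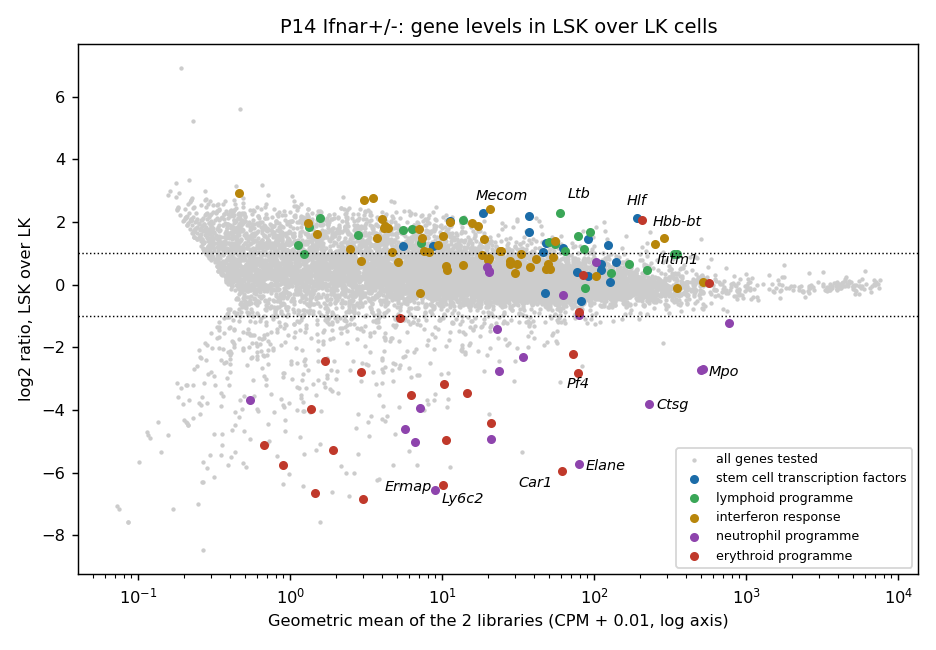
Each point is 1 gene: the horizontal log axis is the geometric mean of its CPM in the 2 libraries after adding 0.01, the vertical axis its log2 ratio of LSK over LK, dotted lines mark 2-fold, and colours mark 5 gene lists. Among genes of at least 50 CPM that are named for their ratio, Ltb lies highest at 2.30 and Ly6c2 lowest at -6.57.

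Among 3302 named and annotated genes with at least 50 CPM in the higher library, the 12 with the highest ratios included Ltb, Mecom, Hlf, Pglyrp2, Hbb-bt, Shisa8, Gem, Gimap6, S100a6, Gimap1 and Gcnt2. Mecom and Hlf encode transcription factors that HSC depend on. Hlf (chromosome 11: 90336535 to 90390917) had 404 CPM in LSK (401 to 408) and 91.5 CPM in LK (89.7 to 93.4), a log2 ratio of 2.14 (95% interval 2.11 to 2.17). Mecom (chromosome 3: 29951296 to 30509759) had 79.8 CPM in LSK and 17.6 CPM in LK, a ratio of 2.18 (2.11 to 2.26). Ltb, which encodes lymphotoxin beta, a cytokine of the TNF family, led the list with 132 CPM in LSK and 26.9 CPM in LK, a ratio of 2.30 (2.24 to 2.36). The interval of none of these 3 reached 2-fold or less.

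The other members of that group have varied roles. Gimap6 and Gimap1, neighbouring GTPase genes on chromosome 6 known from lymphocyte survival, had 232 and 193 CPM in LSK against 58.4 and 54.1 CPM in LK. Gcnt2, a glycosyltransferase, had 151 CPM in LSK and 46.4 CPM in LK. S100a6, Gem, Shisa8 and Pglyrp2 had log2 ratios of 1.84, 2.02, 2.02 and 2.10. All 12 ratios lay between 1.70 and 2.30.

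Hbb-bt went against the other hemoglobin genes. This adult beta-globin gene (chromosome 7: 103812524 to 103813923) had 418 CPM in LSK (414 to 421) and 100.4 CPM in LK (98.4 to 102), a log2 ratio of 2.06. Its near-identical neighbour Hbb-bs had 3.68 CPM in LSK and 7.61 CPM in LK, a ratio of -1.05, and the alpha-globin gene Hba-a1 had 1.09 and 7.62 CPM, a ratio of -2.80. Reads of such copies can be split between genes in counting, so the level of each is uncertain. In barcodes with 100 gene UMI or fewer, which hold free RNA rather than cells, Hbb-bt had 389 CPM in the LSK library and 132 CPM in the LK library. Within the cells, Hbb-bt was at 860 CPM in the 637 LSK cells called HSC-like below and at 13.3 CPM in the 684 LK cells called erythroid-like. Hbb-bs was at 6.98 and 12.2 CPM in the same 2 sets of cells. How reads were split between the 2 genes was not tested.

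The 12 genes with the lowest ratios were Ly6c2, Ermap, Car1, Elane, Mt1, Klf1, Ms4a3, Aqp1, Tnfaip2, Ctsg, Pf4 and Cpa3. Elane and Ctsg, granule proteases of neutrophil precursors, had 10.8 and 61.3 CPM in LSK against 575 and 854 CPM in LK, log2 ratios of -5.73 and -3.80. Ly6c2, a surface protein of monocytes and neutrophil precursors, had 0.910 CPM in LSK and 86.5 CPM in LK. Car1, Ermap, Klf1 and Aqp1 belong to the red cell programme. Klf1, its central transcription factor, had 1.89 CPM in LSK (1.66 to 2.14) and 59.0 CPM in LK (57.5 to 60.5). Car1, a carbonic anhydrase, had 7.84 CPM in LSK and 480.0 CPM in LK, a ratio of -5.93.

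Other lineages were represented as well. Pf4, a platelet chemokine, had 20.1 CPM in LSK and 174 CPM in LK. Cpa3, a mast cell and basophil protease, had 10.2 and 86.2 CPM. Mt1, a metallothionein that binds zinc and copper, had 5.24 and 214 CPM. Among LK cells of the classes named below it was highest in erythroid-like cells (507 CPM), then neutrophil progenitor-like cells (224 CPM). For 7 of these 12 genes the LSK level was no higher than in the free RNA of the same library (Elane 10.8 CPM in cells and 20.3 CPM in free RNA). The LSK UMI of Elane were not spread over all cells: the 2987 cells of unnamed clusters held 18 of them (0.209 CPM), the HSC-like cells 5 and the lymphoid-primed-like cells 7. The share of free RNA in the cells was not measured.

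Gene lists gave the same picture by role, shown in the plot of lists. Of 20 stem cell transcription factors, 12 were at least 2-fold higher in LSK and 0 lower, with a median log2 ratio of 1.19, where 12.6% of all genes were higher and 4.01% lower. Nkx2-3 at 2.27, Mecom at 2.18, Hlf at 2.14 and Hoxa10 at 2.02 were the highest. Meis1 had 190 CPM in LSK and 79.0 CPM in LK. Runx1, Tal1 and Gata2, which stay active in committed progenitors, had ratios of 0.07, -0.27 and -0.51. Of 22 lymphoid genes, 15 were at least 2-fold higher and 0 lower, with a median of 1.31. Flt3, the receptor that marks lymphoid priming, had 168 CPM in LSK (166 to 170.1) and 52.5 CPM in LK (51.1 to 54.0). Dntt and Rag1, which edit antigen receptor genes, had ratios of 1.56 and 2.13, and Il7r had 10.1 and 2.995 CPM.

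**Figure D2:**
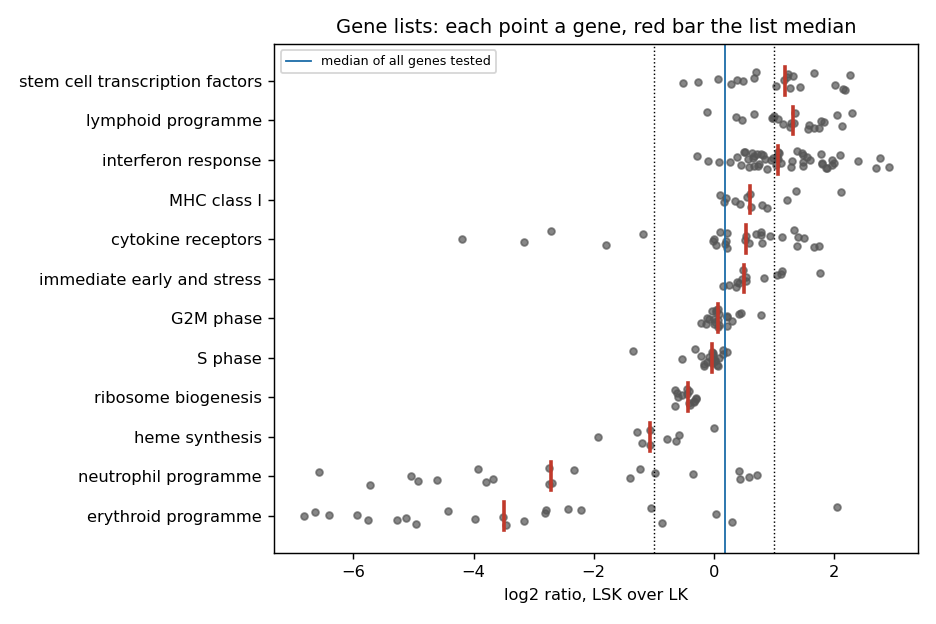
Each grey point is the log2 ratio of LSK over LK of 1 gene with at least 50 UMI, grouped in rows by gene list; red bars are list medians, the blue line is the median of all genes tested (0.19) and dotted lines mark 2-fold. The stem cell, lymphoid and interferon lists lie to the right, at medians of 1.19, 1.31 and 1.07, and the neutrophil and erythroid lists far to the left, at -2.72 and -3.49.

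Of 20 neutrophil genes, 14 were at least 2-fold lower in LSK and 0 higher, with a median of -2.72, against 4.01% of all genes lower. The abundant granule genes Mpo and Prtn3 had 195 and 204 CPM in LSK against 1298 and 1321.5 CPM in LK. Plac8, expressed from early multipotent stages on, had a smaller ratio of -1.22. Lyz2, Csf3r and Gfi1 were on the LSK side, at 0.72, 0.58 and 0.43. Of 22 erythroid genes, 18 were at least 2-fold lower and 1 higher, Hbb-bt, with a median of -3.49. Rhd and Cited4 had the lowest ratios, -6.83 and -6.64, while Car2 (575 and 559 CPM) and Nfe2 (ratio 0.31) were close to equal. Of 9 heme synthesis genes, 5 were at least 2-fold lower and 0 higher, led by Cpox at -1.92.

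The interferon response list was on the LSK side, although both libraries were Ifnar+/-. Of 51 genes with enough UMI, 28 were at least 2-fold higher in LSK and 0 lower, with a median of 1.07 against 0.19 for all genes, of which 12.6% were higher. Ifitm1, a membrane protein that limits virus entry, had 480.3 CPM in LSK and 172 CPM in LK. Ifitm3 had 392.3 and 159.5 CPM, a ratio of 1.30. Iigp1, an interferon-induced GTPase, had 9.17 and 1.34 CPM, a ratio of 2.77, and Ifi44 had 7.73 and 1.18 CPM. Ly6e, Ifitm2 and Cmpk2 were near equality, at -0.09, 0.09 and -0.28. Ly6a, on this list, was chosen by the sort.

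Receptors and antigen presentation genes had medians nearer to that of all genes, of which 12.6% were at least 2-fold higher and 4.01% lower. Of 13 MHC class I genes, 3 were at least 2-fold higher in LSK and 0 lower, with a median of 0.61. B2m, the common light chain, had 772 CPM in LSK and 442 CPM in LK, and H2-K1 had 576 and 313 CPM. Of 28 cytokine receptors, 7 were at least 2-fold higher and 5 lower, with a median of 0.53. The higher ones included Flt3, Il7r and Il1r1. The lower ones were Il1rl1 at -4.20, Epor, the erythropoietin receptor, at -3.17, Ccr2 at -2.72, Csf1r at -1.79 and Ifngr1 at -1.18. Ifngr1 binds interferon gamma and had 72.6 CPM in LSK and 164 CPM in LK, opposite to Ifnar1. Of 14 immediate early genes, which respond to stimulation and to cell handling, 4 were at least 2-fold higher and 0 lower, with a median of 0.51.

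Markers of cells outside both gates were summed over their lists. The endothelial and stromal list summed to 30.1 CPM in LSK and 8.2 CPM in LK, of which Emcn, also an HSC gene, made up 28.1 and 6.68 CPM. The macrophage list summed to 4.54 and 3.93 CPM, the B cell list to 57.96 and 32.4 CPM, and the T and NK cell list to 59.05 and 112 CPM. Nkg7 made up 56.6 and 111.6 CPM of the last, and Cd79b made up 41.9 and 26.5 CPM of the B cell list. Cd3e, the defining T cell marker, had 0 UMI in both. With 3 UMI taken as the limit for 0, rather than the exact Poisson interval, that allows up to 0.0229 CPM in LSK and 0.0299 CPM in LK. The mature neutrophil list summed to 16.9 and 50.9 CPM. The part of such cells in the results was not tested.

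Surface proteins were read from the tags in UMI per cell, drawn for all 10 tags in the plot of tags. SA_PE, a tag for which the labels name no target, had a median of 893 in LSK and 42.0 in LK, a 21.3-fold difference. The mean SA_PE count differed by 2.82-fold and the 90th percentile of LK cells was 1463. CD201, encoded by Procr and used to find HSC, had medians of 13 and 3. CD135 had 34.0 and 10.0, and CD34 had 238 and 156. In the other direction, CD16/32, the Fc receptor of myeloid progenitors, had medians of 21.0 in LSK and 45.0 in LK, and CD41, an integrin of the megakaryocyte lineage, had 6 and 25. CD150 had 9 and 15. CD127 had 2.0 and 3.0, too few to order.

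**Figure D3:**
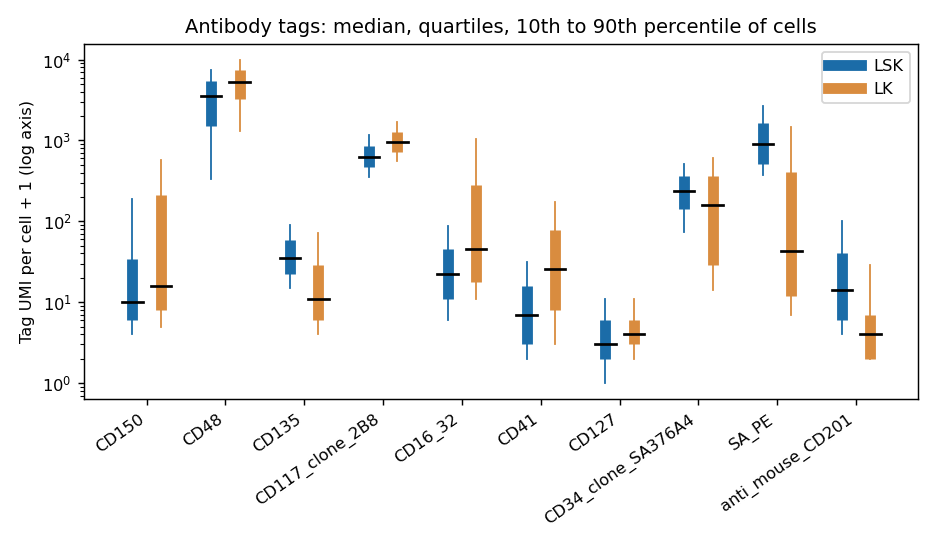
For each antibody tag, black bars are the median, thick bars the quartiles and thin lines the 10th to 90th percentile of tag UMI per cell plus 1, on a log axis, in LSK (blue) and LK (orange). SA_PE spreads from 370 to 2684 in LSK and from 6.0 to 1463 in LK.

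Tag and RNA went the same way for most proteins. Procr RNA was 4.67-fold higher in LSK by CPM and its tag 4.33-fold higher by median. Flt3 RNA was 3.19-fold higher and its tag 3.40-fold. These folds set depth-scaled RNA beside unscaled tag medians, so their sizes cannot be matched. In UMI per cell, Procr and Flt3 RNA were 3.17-fold and 2.17-fold higher in LSK. Their mean tag counts were 2.47-fold and 1.76-fold higher. Fcgr3 and Fcgr2b, which encode CD16 and CD32, together were 6.30-fold lower by CPM. For Kit and Cd48 the tag and the CPM went different ways. Kit RNA was 1.17-fold higher in LSK by CPM, while the CD117 tag had a median of 630.0 in LSK and 953 in LK. Per cell rather than as CPM, Kit RNA was 6.44 UMI in LSK and 8.12 UMI in LK, the direction of the tag. Cd48 RNA was 144 and 112 CPM, or 4.08 and 4.67 UMI per cell, against medians of 3525 and 5246 for its tag. With the tags scaled too, as shares of all tag UMI, CD117 was 11.3% in LSK and 13.4% in LK. CD48 was 60.9% and 70.3%, so both tags stayed lower in LSK while the CPM of their genes were higher. Il7r RNA was 3.36-fold higher in LSK by CPM, while its tag, CD127, had too few UMI to order.

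The LSK and LK cells were clustered together, and 9 of 17 clusters could be named from marker genes; names carry "-like" because they rest on RNA only. HSC-like cells were 637 of 4615 LSK cells, 13.8% (95% exact Clopper-Pearson interval 12.8 to 14.8), and 86 of 2411 LK cells, 3.57% (2.86 to 4.39). With each library clustered alone the order turned, to 7.52% of LSK and 9.62% of LK. Lymphoid-primed-like cells were 16.6% of LSK (15.6 to 17.7) and 6.51% of LK (5.56 to 7.57). This class was larger in LSK under all 7 alternative settings, but its size depended on them, from 0.953% of LSK and 0.373% of LK at a clustering resolution of 0.5 to 17.1% and 3.44% with each library clustered alone. Erythroid-like cells were 1.24% of LSK (0.937 to 1.60) and 28.4% of LK (26.6 to 30.2). Monocyte and dendritic progenitor-like cells were 0.520% and 13.3%, neutrophil progenitor-like cells 0.108% and 7.71%, basophil and mast-like cells 0.780% and 10.8%, and megakaryocyte-like cells 2.21% and 5.35%. These smaller classes were split or merged differently by other settings. The basophil and mast-like share of LK lay between 2.45% and 8.40% in 6 settings, and this class, the monocyte class and the megakaryocyte class were not named at resolution 0.5. The monocyte class was named in 3 of the 7 settings, at 5.27% to 9.17% of LK, while the neutrophil progenitor-like share of LK ran from 10.1% to 27.5%. The megakaryocyte-like share of LK lay between 3.44% and 7.55% in 6 settings. The basophil and mast-like cluster had 6 markers of its class among its 10 leading genes. Its LK cells nevertheless had more Mpo (2004 CPM) and Ctsg (1312 CPM) than Cpa3 (494 CPM). Prg2, another of its leading genes, had 1908 of its 2517 LK UMI in 1 cell.

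Unnamed clusters held 64.7% of LSK and 24.4% of LK cells; their leading genes included histone, S phase and mitosis genes and, in 1 cluster, Ltb, Hlf and Ly6a. The genes that define clusters differ between the fractions, so these shares describe the makeup of the 2 libraries rather than add to the gene results. No doublets were removed: Scrublet's own threshold marked 0.0217% of LSK and 0.415% of LK cells and so did not work as a filter. The lymphoid-primed-like cluster that carries Ebf1 and mitosis genes had the most cells with high doublet scores, 13.7%.

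**Figure D4:**
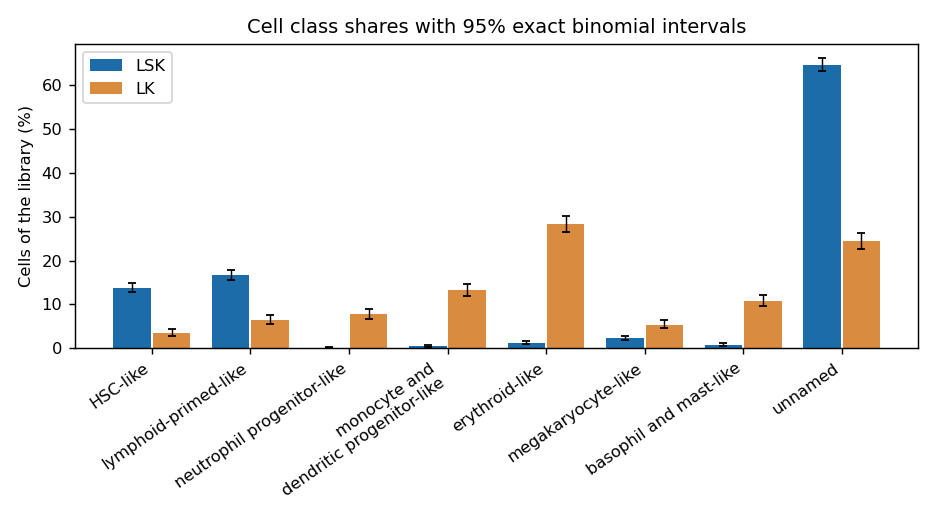
Bars are the share of cells of each library in each class, LSK in blue and LK in orange, with 95% exact binomial intervals (counting error only). In this joint clustering HSC-like and lymphoid-primed-like cells take larger shares of LSK, 13.8% and 16.6%, and erythroid-like cells take 28.4% of LK; the HSC-like order turned with each library clustered alone, and the lymphoid-primed-like share of LSK was 0.953% at resolution 0.5.

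Since no Sca1 gate is named for LK, LK cells of the LSK kind were looked for by the SA_PE tag, chosen after its values were seen. Of 2411 LK cells, 624 (25.9%, 24.1 to 27.7) had an SA_PE count at or above 370, the 10th percentile of LSK cells. In these 624 cells Ly6a had 44.5 CPM (41.6 to 47.7), near the 47.0 CPM of LSK, and in the other 1787 LK cells it had 0.625 CPM (0.466 to 0.822). The 624 cells held 86 of the 86 HSC-like and 115 of the 157 lymphoid-primed-like LK cells, but 13 of the 684 erythroid-like cells. This is a range of a continuous count, not a cell type: 108 of the 624 and 94 of the others lay within 1.5-fold of the limit.

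Against these 624 cells, the LSK library differed little. Of 13377 genes, 70 (0.523%) were at least 2-fold higher in LSK and 67 (0.501%) at least 2-fold lower. Hlf had 386 CPM in them against 404 CPM in LSK, and Procr 22.5 against 22.95 CPM. All 12 genes of the higher group had log2 ratios between -0.04 and 0.20 against them, compared with 1.70 to 2.30 against all LK cells. The interferon list had a median of 0.05, with 1 of 51 genes at least 2-fold higher, and the stem cell list had a median of 0.04, with 0 of 20. Against the 1787 other LK cells, 2502 genes (18.4%) were at least 2-fold higher and 608 (4.48%) lower.

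Some lineage genes still differed from the 624 cells. Car1 had 45.1 CPM in them and 7.84 CPM in LSK, and Elane had 25.1 and 10.8 CPM, log2 ratios of -2.52 and -1.21. Of the 12 named lower genes, 9 stayed at least 2-fold lower in LSK, while Ctsg, Pf4 and Cpa3 had ratios of -0.80, -0.11 and -0.86. These 12 were picked for their low ratios against all LK cells. Over whole lists, 5 of 19 neutrophil and 4 of 16 erythroid genes were at least 2-fold lower, with medians of -0.29 and -0.51. Of 9 heme synthesis genes, 0 were, and 0.501% of all genes. Free RNA of the LK library held Car1 at 369 CPM and Elane at 456 CPM, against 7.39 and 20.3 CPM in the LSK library. The part of free RNA and of doublets in these remaining differences was not tested.

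**Figure D5:**
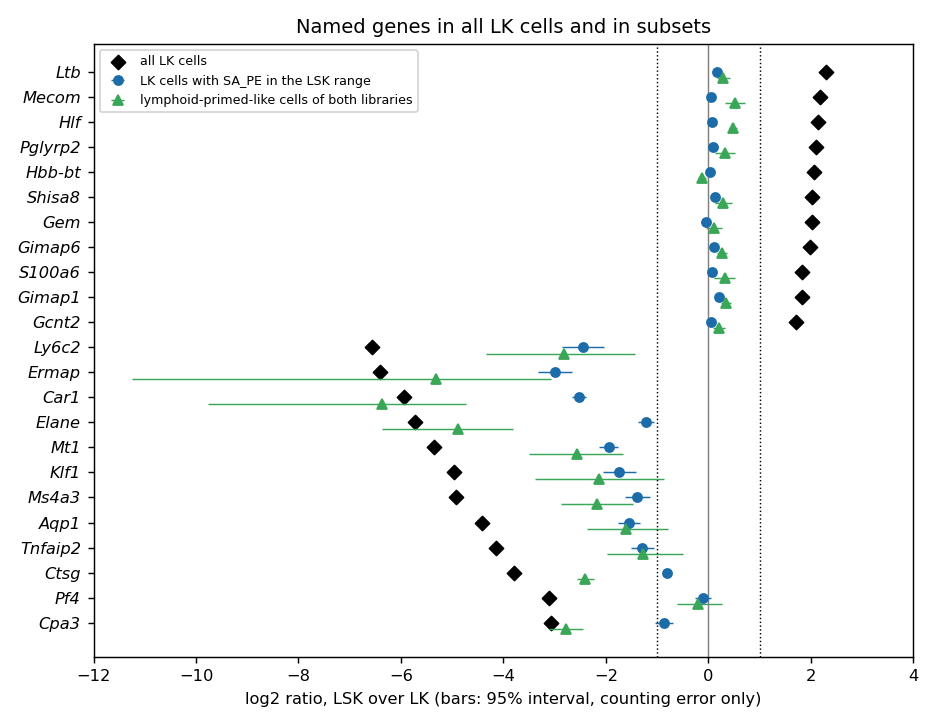
Rows are named genes, the higher ones above and the 12 lower ones below, and the horizontal axis is the log2 ratio of LSK over LK: black diamonds for all LK cells, blue circles for the 624 LK cells with SA_PE in the LSK range, and green triangles for lymphoid-primed-like cells of both libraries (some, such as Car1 and Elane, on under 50 UMI in each), with 95% intervals of counting error. The higher genes lie at 1.70 or more against all LK cells and between -0.04 and 0.20 against the SA_PE subset. Of the 12 lower genes, picked for low ratios against all LK cells, 9 lie below -1 in both. Over whole lists, not drawn here, 5 of 19 neutrophil and 4 of 16 erythroid genes were at least 2-fold lower against the subset.

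Within classes the fractions were compared with the limit that clustering itself had grouped cells of like expression. In HSC-like cells (637 and 86), 86 of 10317 genes (0.834%) were at least 2-fold higher in LSK and 21 (0.204%) lower. The LK cells of this class were under the 100 cells a library planned for such comparisons. They held 1421686 UMI against 10317216 in LSK, so a gene could be counted on its LSK UMI with few in LK. Hlf had 873 CPM in LSK and 999.5 CPM in LK there, Mecom 249.6 and 265 CPM, and Ly6a 126 and 130.1 CPM. Fos, an immediate early gene, had the lowest ratio among genes of at least 50 CPM, -0.99 (77.9 and 155 CPM), and Meg3, an imprinted long non-coding RNA, the highest, 0.99. The interferon list had a median of 0.03 in these cells. In lymphoid-primed-like cells (767 and 157), 70 of 11178 genes (0.626%) were at least 2-fold higher and 18 (0.161%) lower. Ctsg, at 22.5 CPM in LSK and 119 CPM in LK, and Mpo, at 141 and 315 CPM, were the lowest among genes of at least 50 CPM there, and Wfdc17 and Serpina3g the highest, at 0.67 and 0.53. Flt3 had 232 and 200.1 CPM and Il7r 37.2 and 31.4 CPM.

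Megakaryocyte-like cells (102 and 129) differed more. Of 8240 genes, 215 (2.61%) were at least 2-fold higher in LSK and 164 (1.99%) lower. Of 7 megakaryocyte markers with enough UMI, 5 were at least 2-fold lower in LSK and 0 higher. Pf4 had 178 CPM in LSK and 3167 CPM in LK, Vwf, the von Willebrand factor, had 6.91 and 76.0 CPM, and Itgb3, the integrin partner of CD41, had 4.32 and 67.6 CPM. Of 18 stem cell transcription factors, 8 were at least 2-fold higher in LSK and 0 lower, with a median of 0.76, and 5 had ratios below 0. Hlf had 241 and 35.5 CPM and Mecom 99.7 and 19.0 CPM. The tags went with this, with CD41 medians of 34.5 in LSK and 171 in LK and SA_PE medians of 641.5 and 55.0, while CD150 was high in both, 401 and 536.

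The few erythroid-like LSK cells (57, against 684 in LK) lay mostly in cluster 5, which held 50 of them and 301 LK cells, while cluster 16, whose leading genes include Klf1, Rhd and Ermap, held 7 and 383. Over the class 1039 genes (9.83%) were at least 2-fold higher in LSK and 371 (3.51%) lower. These 57 cells were also under the 100 cells a library planned for comparisons within a class. The LSK cells of the class held 1828355 UMI against 34482621 in LK, so a gene could be counted on its LK UMI with few in LSK. The ratio of such a gene has a wide counting error and depends on the counts added before it. How many of the genes past 2-fold this concerns was not tested. Car1 had 521 CPM in LSK and 1379 CPM in LK, and Mecom had 52.5 and 1.77 CPM.

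Cell cycle transcripts were close in the sums and apart by cell. The 22 G2M genes summed to 3073 CPM in LSK and 2794 CPM in LK, with a median log2 ratio of 0.07 and 0 genes past 2-fold, and the 21 S phase genes had a median of -0.02. After each cell was thinned to 5000 UMI, 51.2% of LSK (49.8 to 52.7) and 66.4% of LK cells (64.5 to 68.3) had at least 3 UMI of the G2M list; without thinning the shares were 77.2% and 91.1%. The order of the shares goes against that of the summed CPM, which itself turns with TMM factors, so no order of cycling is read from them. By class, 5.34% of LSK and 5.81% of LK HSC-like cells passed, and 74.97% and 75.8% of lymphoid-primed-like cells. Megakaryocyte-like cells had the other order, 97.1% of LSK (91.6 to 99.4) and 80.6% of LK (72.7 to 87.0), and 21 of the 22 G2M genes had ratios above 0 in them. Without thinning, the shares of this class were closer, 97.1% and 94.6%. Among unnamed cells the shares after thinning were 52.7% and 57.0%. Of 10 cyclin and cell cycle inhibitor genes with enough UMI, 8 had ratios above 0, with a median of 0.47 against 0.19 for all genes. In this list 1 gene was at least 2-fold higher in LSK and 0 lower, against 12.6% and 4.01% of all genes. Highest was Cdkn1c, an inhibitor of cell division found in resting HSC, with 16.7 CPM in LSK and 4.86 CPM in LK. Lowest was Cdk6, a kinase that drives exit from rest, with 227 and 421 CPM. All 14 ribosome biogenesis genes, Myc among them, were on the LK side, none by 2-fold, with a median of -0.43. TMM factors shift all ratios further to the LK side, so they are no check of this direction.

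The other 3 LSK and LK pairs share no library with this one. Over 13328 genes counted in all 4 pairs, 1574 were at least 2-fold higher in LSK here, and 1487 of them (94.5%) also in P14 Ifnar-/-, 1469 (93.3%) in P0 Ifnar+/- and 1506 (95.7%) in P0 Ifnar-/-. These pairs had 2042 (15.3%), 2346 (17.6%) and 3502 (26.3%) such genes in all, so the shared genes were 72.8%, 62.6% and 43.0% of theirs. Of 531 genes lower here, 474 (89.3%), 407 (76.6%) and 420 (79.1%) were lower there too, out of 548 (4.11%), 568 (4.26%) and 622 (4.67%), or 86.5%, 71.7% and 67.5% of theirs. The overlap was described and not tested.

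Sizes differed between pairs. The erythroid genes Ermap and Klf1 had lower ratios, further to the LK side, at P14 than at P0. Ermap had log2 ratios of -6.40 here and -6.95 in P14 Ifnar-/-, against -4.03 in P0 Ifnar+/- and -3.27 in P0 Ifnar-/-. Klf1 had -4.96 and -5.65 at P14 and -3.76 and -3.33 at P0. The whole erythroid list had medians of -3.49 here and -4.06 in P14 Ifnar-/-. At P0 its medians were -3.31 in Ifnar+/- and -2.93 in Ifnar-/-. Hlf and Mecom had smaller ratios here than in the other 3 pairs. Hlf had 2.14 here and 2.47, 2.46 and 3.69 there, and Mecom 2.18 here and 2.60, 2.62 and 4.51. S100a8, a calcium-binding protein of mature neutrophils, had a ratio of -2.11 here, -0.39 in P14 Ifnar-/-, -10.6 in P0 Ifnar+/- and -5.77 in P0 Ifnar-/-. The interferon list had a median of 1.07 here, 1.21 in P14 Ifnar-/-, 1.32 in P0 Ifnar+/- and 1.84 in P0 Ifnar-/-. The medians of all genes had the same order, 0.19 here and 0.23, 0.25 and 0.43 there. These differences between pairs were not tested.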

How the data were processed

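Gene and antibody tag counts were read from raw 10x Chromium 3' v3.1 matrices deposited by the authors, in whole UMI counts per barcode with no normalization. The file headers carry the mark of Cell Ranger 4, while Cell Ranger 6.0.1 and mm10 are named per the submitters' processing notes; the annotation release is not given in the sources used here. Cells were barcodes with at least 7500 gene UMI and at most 10% mitochondrial UMI. Gene counts were summed over cells and divided by the summed gene UMI (CPM). Ratios are log2 after 0.5 counts were added, with conditional exact binomial intervals; levels have exact Poisson and shares exact Clopper-Pearson 95% intervals. These cover counting error only. Genes with at least 50 UMI in 1 of the 2 libraries were read, and at least 2-fold was the threshold. With 1 library per group there was no test.

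Genes named were Ly6a, Kit, Ifnar1 and Ifnar2, the 12 highest and 12 lowest ratios among genes of at least 50 CPM, and members of 31 lists. The cells to compare, the lists and the markers were chosen with earlier results of these data known. Clusters came from scanpy 1.11.5 (2000 variable genes, 30 components, 15 neighbours, Leiden resolution 1). The score needed to name a cluster was set after the clusters were seen, so class shares rest on rebuilt names. TMM factors came from edgeR 4.0.16. The ratio script was tested on simulated data. Positions are from RefSeq on GRCm38.p6 (mm10). Cell numbers, filters, scaling, cluster settings, doublets and thinning were varied. A few genes that these rules select are not reported here.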

Additional observations from a re-analysis of the deposited data

Results flagged for a closer look

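A few genes had opposite ratios, each past 2-fold, in this pair and in another LSK and LK pair. They were 1 to 5 genes per direction and pair, of 1574 genes higher and 531 lower here. With 1 library a side the difference between pairs was not tested. Usp18, which restrains interferon signalling, had a log2 ratio of 1.12 here and -1.57 in P0 Ifnar-/-. The second value rested on 19 UMI in LSK and 101 UMI in LK. Camp, a neutrophil granule peptide, had -1.69 here and 2.09 in P14 Ifnar-/-. Here it rested on 44 UMI in LSK and 110 UMI in LK, with 79 of the latter in 1 cell. Cma1, St3gal6 and Pde10a were chosen after their values were seen. Cma1, a mast cell chymase, had 5.59 here, -2.52 in P14 Ifnar-/- and -1.90 in P0 Ifnar+/-. Of its 408 UMI in LSK, 401 (98.3%) came from 1 cell. St3gal6, a sialyltransferase, had 1.45 here and -1.03 in P0 Ifnar+/-. Pde10a, a phosphodiesterase, had -1.45 here, 1.39 in P0 Ifnar+/- and 2.65 in P0 Ifnar-/-.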

How the results depend on the processing

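No paired analysis was possible because each group is 1 library. The 1719 higher and 545 lower genes became 230 and 181 with 5 CPM added to each level, and 3263 and 927 at a 1.5-fold threshold. A minimum of 200 UMI left 1125 higher genes, and a minimum of 10 UMI gave 844 lower genes. Against LK cells with SA_PE in the LSK range, an alternative chosen after seeing the data, 70 were higher and 67 lower. Within HSC-like cells the list medians were 0.0327 for interferon, -0.00374 for stem cell factors and -0.11 for lymphoid genes. Those for neutrophil and erythroid genes were -0.22 and -0.0777. The stem cell and lymphoid medians changed sign with 0 genes past 2-fold, and 10 of 20 stem cell factors lay above 0. Within lymphoid-primed-like cells the medians, in the same order, were 0.22, 0.18, 0.0329, -0.31 and 0.0148. The last changed sign, on 7 genes with 0 past 2-fold. The neutrophil and erythroid medians were -0.0475 and -1.25 in erythroid-like cells, -1.04 and -0.69 in megakaryocyte-like cells, and -2.12 and -1.78 with 5 CPM added. The HSC-like share of LSK was 17.0% at resolution 2, 16.2% with 50 components, 7.52% with each library on its own, 17.1% without doublets or at 15000 UMI, and 25.6% at 5% mitochondrial UMI. That of LK was 4.85% at resolution 2, 9.62% on its own, 4.43% at 15000 UMI and 7.32% at 5% mitochondrial UMI, so the order of the fractions turned when each was clustered alone. The erythroid-like share of LK was 25.3% at resolution 2, 24.3% on its own and 21.0% at 15000 UMI. Neutrophil or monocyte-like cells were 27.5% of LK at resolution 0.5, 15.4% at resolution 2, 23.4% with 50 components and 18.6% on their own. The LSK over LK fold of summed shares of all tags was 3.54 for SA_PE and 0.172 for CD16/32, against 2.82 and 0.137 for the means and 21.3 and 0.467 for the medians, so the step from median to mean moved SA_PE more than the scaling. The G2M difference was -11.3 percentage points at 2500 UMI and -11.8 for at least 1 UMI. The causes were not tested.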

Other observations

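One LSK cell carried most of the Cma1, Mcpt4 and Tpsb2 RNA of its library. This cell had 9276 gene UMI and held 401 of 408 Cma1 UMI, 220 of 235 Mcpt4 UMI, 168 of 171 Tpsb2 UMI and 154 of 1335 Cpa3 UMI. In the LK library Cma1, Mcpt4 and Tpsb2 had 6, 1 and 3 UMI, although Cpa3 had 8662. Among all genes past 2-fold, 15 had more than 50% of their UMI in 5 cells, and their ratios describe those cells.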
